A study of Homo sapiens with 2 samples.

Results

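The S100 genes studied here encode members of a family of small calcium-binding proteins. They were measured by RNA-seq in HCT116, an established human cell line of epithelial origin, derived from a colon tumour. The 10 members, S100A2, S100A3, S100A4, S100A6, S100A10, S100A11, S100A13, S100A14, S100A16 and S100P, were taken by gene name from the 60623 named genes of the count table. The siKAT7 culture was transfected with an siRNA against KAT7 and the siControl culture with a non-specific siRNA. Both cultures carry the WT genotype label, both received their siRNA with Lipofectamine 2000, and each group had 1 library. KAT7, also named HBO1, is a histone acetyltransferase, and the comparison asks how transcript levels differ once it is lowered. No difference below has a replicate check, so no test between the groups was possible, and every interval covers counting error only.

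S100 proteins are found in vertebrates and mostly act as dimers. Each subunit holds a pair of EF-hands, which are helix-loop-helix units that bind calcium in most S100 proteins, though not in all. In those that bind it, calcium exposes a surface that holds on to a partner protein. S100 proteins have no enzyme activity and work through partners, among them annexins, cytoskeletal motors and co-chaperones. Several are also released from cells and bind receptors. In epithelial tumours S100A4 and S100P are studied for their part in cell migration and invasion.

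The coding bases of the C-terminal calcium-binding loop show what the family shares and how S100A14 and S100A10 differ from it. Below, the 12 codons of the loop are given 5′ to 3′ on the coding strand, from GENCODE 29 transcripts on GRCh38, with capitals at the codons of loop positions 1, 3, 5 and 12, whose side chains contact calcium in a canonical loop. S100A14 and S100A2 are shown because they had the largest ratios, and S100A6 because it had the most counts. S100A4 is shown as a canonical loop close to those of S100A2 and S100A6. S100A10 is shown because its scaled counts were nearly equal in both libraries.
S100A14 (chr1:153614951-153614986, minus strand): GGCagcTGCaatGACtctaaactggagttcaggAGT
S100A2 (chr1:153561511-153561546, minus strand): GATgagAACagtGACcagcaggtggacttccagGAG
S100A6 (chr1:153534753-153534788, minus strand): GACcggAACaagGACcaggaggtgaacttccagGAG
S100A4 (chr1:153543843-153543878, minus strand): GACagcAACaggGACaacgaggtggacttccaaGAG
S100A10 (chr1:151983244-151983279, minus strand): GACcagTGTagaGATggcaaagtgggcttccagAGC
In 8 of the 10 members the loop was canonical, with codons for aspartate at position 1, for aspartate, asparagine or serine at position 3, for one of these or glycine at position 5 and for glutamate or aspartate at position 12. S100A14 and S100A10 were the 2 exceptions, each with a cysteine codon at position 3 and a serine codon at position 12. S100A14 also had a glycine codon at position 1, where S100A10 kept an aspartate codon. The encoded proteins were 90 to 105 residues long.

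Expected counts, which are read numbers that RSEM estimates per gene, summed over named genes to 23533186 in siKAT7 and 23450331 in siControl. KAT7 itself was at 69.6% of its siControl level (counting interval 59.7% to 80.8%), with 287.22 expected counts in siKAT7 and 442.94 in siControl. Of 7 intestinal epithelial markers, 6 had a mean of at least 1 CPM (counts scaled to the library size and its TMM factor), and VIL1 did not. The 3 endothelial markers summed to 0.97 CPM in siKAT7 and 0.822 CPM in siControl. Of 6 fibroblast markers COL1A1 passed 1 CPM, and the list summed to 31.7 CPM in siKAT7 and 31.8 CPM in siControl. Of 5 squamous markers KRT6A passed, and the list summed to 1.59 CPM in siKAT7 and 2.42 CPM in siControl. Among 7 leukocyte markers, CD68 passed 1 CPM, and the list summed to 92.4 CPM in siKAT7 and 81.2 CPM in siControl. In both libraries 3 of the 7 had 0 counts, S100A8 and S100A9 among them.

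The family as measured was made up of 7 abundant transcripts with a mean over 100 CPM, 2 scarcer ones and S100P. Summed over the 10 members, the libraries held 83436 expected counts in siKAT7 and 73395 in siControl, which is 0.355% and 0.313% of all named counts in those libraries. The log2 ratio of the summed CPM, siKAT7 over siControl, was 0.29. S100A6 made up 43.1% of the sum in siKAT7 and 43.3% in siControl.

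Levels were also set on a scale per length, as TPM (transcripts scaled to a fixed total), from the expected counts and the deposited gene lengths. In siKAT7, S100A6 was at 2880 TPM, followed by S100A14 at 916, S100A10 at 793, S100A11 at 501, S100A16 at 407, S100A13 at 306, S100A4 at 267, S100A2 at 38.7, S100A3 at 6.61 and S100P at 0.343 TPM. In siControl, S100A6 was at 2738 TPM, followed by S100A10 at 919, S100A14 at 710, S100A11 at 520, S100A16 at 396, S100A13 at 296, S100A4 at 274, S100A2 at 30.1, S100A3 at 6.1 and S100P at 0 TPM. S100A14 and S100A10 thus held opposite places in the 2 libraries, with counting intervals of 902 to 930 TPM for S100A14 against 777 to 810 TPM for S100A10 in siKAT7, and 698 to 723 TPM against 901 to 938 TPM in siControl. The closest neighbours among the measured members were S100A13 and S100A4 in siControl, whose intervals of 286 to 306 TPM and 264 to 285 TPM almost met. Full gene length was used, so levels of the shortest transcripts are understated relative to longer ones when few fragments can start near an end.

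**Figure D1:**
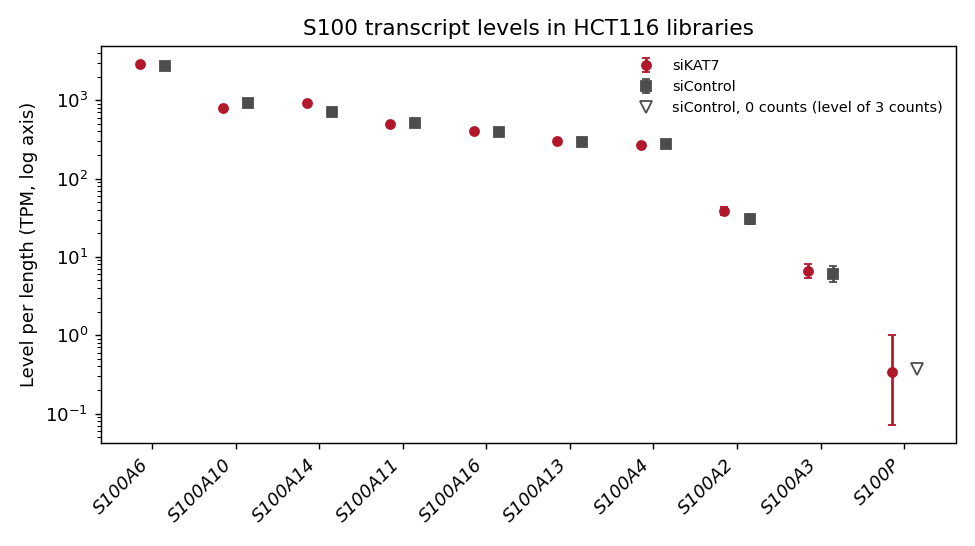
Level of each S100 gene per length (TPM, log axis) in siKAT7 (red circles) and siControl (grey squares), 1 library each, with bars for the 95% Poisson counting interval; the open triangle marks the level that 3 counts of S100P would have in siControl, where no read was counted. S100A6 is highest in both libraries, at 2880 TPM in siKAT7 and 2738 TPM in siControl, and S100A14 lies above S100A10 in siKAT7 and below it in siControl.

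S100A14, an epithelial S100 protein that is studied in tumour cell invasion, had the largest ratio of the abundant members. It had 17409 counts in siKAT7 and 12543 in siControl, or 768 CPM and 515 CPM. The siKAT7 library was the higher, at 1.49 times the siControl level (log2 ratio 0.57, 95% counting interval 0.54 to 0.61). S100A2, a largely nuclear S100 protein that was described as lost in several epithelial tumours, had the same log2 ratio of 0.57 on far fewer reads. It had 325 counts in siKAT7 and 235 in siControl, or 14.3 CPM and 9.66 CPM, and its interval ran from 0.32 to 0.82. Both genes lay just under the 1.5-fold limit that was used to call a gene different, so neither was called. With total-count scaling they lay further below it, at log2 ratios of 0.47 for S100A14 and 0.46 for S100A2. In bulk RNA, fewer cells that express a gene and less of its RNA per cell cannot be told apart.

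S100A6, or calcyclin, binds the ubiquitin-ligase adaptor CACYBP and the co-chaperone SUGT1. It had 35945 counts in siKAT7 and 31749 in siControl, or 1585 CPM and 1305 CPM, with a log2 ratio of 0.28 (0.26 to 0.30). S100A13, which takes part in the release of FGF1 without a signal peptide, had 3896.61 expected counts in siKAT7 and 3496.81 in siControl, or 172 CPM and 144 CPM. Its log2 ratio was 0.26 (0.19 to 0.32). S100A16, a widely expressed member, had 8846 counts in siKAT7 and 7989 in siControl, or 390 CPM and 328 CPM, and a log2 ratio of 0.25 (0.21 to 0.29). The intervals of these 3 genes overlapped each other, and none reached that of S100A14. With total-count scaling the log2 ratios were 0.17 for S100A6, 0.15 for S100A13 and 0.14 for S100A16.

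S100A4 binds the heavy chain of nonmuscle myosin IIA and is known for its association with metastasis. It had 2624.3 expected counts in siKAT7 and 2508.23 in siControl, or 116 CPM and 103 CPM, with a log2 ratio of 0.17 (0.09 to 0.25). S100A11 binds annexin A1 and takes part in membrane repair. It had 5234 counts in siKAT7 and 5041 in siControl, or 231 CPM and 207 CPM, with a log2 ratio of 0.16 (0.10 to 0.21). With TMM scaling both genes were slightly higher in siKAT7, and under scaling by total counts their log2 ratios were 0.06 and 0.05. On the TPM scale both were slightly lower in siKAT7, with overlapping counting intervals. S100A4 was at 267 TPM in siKAT7 and 274 in siControl, and S100A11 at 501 and 520 TPM. Their direction thus depended on the scale.

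S100A10, or p11, forms a tetramer with annexin A2 at membranes. It had 9062 counts in siKAT7 and 9755 in siControl, which scaled to 400 CPM and 401 CPM. The log2 ratio was -0.0043 (-0.05 to 0.04), so with TMM scaling the counting interval included 0. With total-count scaling the ratio was -0.11, and S100A10 was the only measured member below 0 under both scalings. On the TPM scale it was lower in siKAT7, with counting intervals that did not overlap. It was at 793 TPM (777 to 810) in siKAT7 and 919 TPM (901 to 938) in siControl. The near equality of the libraries thus holds for TMM scaling only.

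S100A3, a cysteine-rich protein known from the hair cuticle, had 91 counts in siKAT7 and 78 in siControl, or 4.01 CPM and 3.21 CPM. Its log2 ratio of 0.32 had a counting interval that ran from -0.13 to 0.78 and included 0. S100P binds ezrin and the receptor AGER. It had 3 counts in siKAT7 and 0 in siControl, and a count of 0 allows up to 3 counts, or 0.123 CPM, in the siControl library. No ratio is given for S100P, which did not reach the mean of 1 CPM that the comparisons required, and the authors' deposited table lists its log2 fold as 0.

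Of the 9 measured members, 0 were at least 1.5-fold higher with an interval that excluded 0 and 0 were lower, beside 3.92% and 3.91% of all 13217 genes. At a looser limit, a ratio of 5 to 4, S100A14 and S100A2 were higher and 0 members were lower, where 10.1% of all genes were higher and 10.9% lower. Of the short abundant genes described below, 14.1% were higher and 1.04% lower at that limit with the length measure chosen at the start. With the deposited length 20.9% of them were higher. At 2-fold 0 members were higher or lower, beside 1.35% and 1.09% of all genes. With TMM scaling, the counting interval lay wholly above 0 for 7 of the 9 members and wholly below 0 for 0. It lay above 0 for 23% and below 0 for 22% of all genes. Among the short abundant genes described below it lay above 0 for 65.2% with the length measure chosen at the start and for 82.5% with the deposited length, and below 0 for 16.6% with the first measure and 5.72% with the second. The median log2 ratio of the 9 members was 0.26 and that of all 13217 genes -0.0048. With total-count scaling, which moved all genes by a median of -0.11, the members' median was 0.15. The log2 ratios of S100A4, S100A11 and S100A10 were then 0.06, 0.05 and -0.11. Counts of intervals are given for TMM scaling only, and would differ with that shift of -0.11. In size it exceeds the lower ends of 0.09 for S100A4 and 0.10 for S100A11. It also exceeds the upper end of 0.04 for S100A10. For the 7 members with at least 100 CPM the median was 0.25.

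S100 transcripts are short and mostly abundant, and other genes of that kind also had positive ratios. Among 297 other nuclear protein-coding genes that averaged 100 CPM or more and had a deposited length of at most 1000 bases, the median log2 ratio was 0.21, and 264 were above 0. The S100 median of 0.26 differed from it by 0.05. The middle of that set, from the 25th to the 75th percentile, ran from 0.09 to 0.31 and held S100A6, S100A13, S100A16, S100A4 and S100A11. S100A14 and S100A2 lay beyond the 95th percentile of 0.48, with 5 and 7 of the 297 genes higher (1.68% and 2.36%). S100A2 had far fewer counts than any gene of that set, and its interval of 0.32 to 0.82 reached below the 95th percentile. S100A10 lay at the other side, with 266 of the 297 higher. Without the ribosomal protein genes, 242 genes remained with a median of 0.19, and 4 of them were above S100A14.

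**Figure D2:**
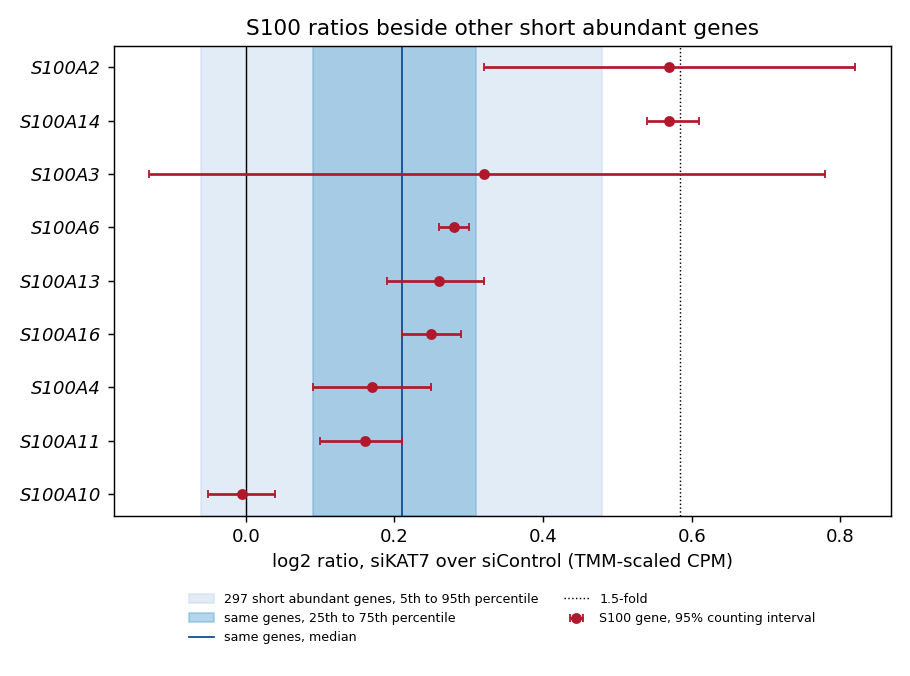
Log2 ratio of TMM-scaled CPM, siKAT7 over siControl, for the 9 measured S100 genes (red points, bars for the 95% counting interval), beside the spread of 297 other protein-coding genes of at most 1000 bases and at least 100 CPM (dark band 25th to 75th percentile, light band 5th to 95th, blue line median). S100A14 and S100A2, at 0.57, lie right of the light band, S100A3 lies between the bands' upper edges, S100A10 lies near 0, and the other 5 genes lie within the dark band.

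How far the family stood from other short genes depended on how length was measured. With the median length over annotated protein-coding transcripts, the measure chosen at the start, 676 genes counted as short and abundant, their median was 0.13 and the S100 median was higher by 0.13. That measure counts many longer genes as short, and 420 of the 676 had a deposited length over 1000 bases. With the length of the longest annotated transcript, 93 genes remained, their median was 0.27 and the S100 difference was -0.01. There, 1 of the 93 genes was above S100A14 and 3 were above S100A2. S100A14 and S100A16 have deposited lengths of 1025 and 1172 bases and so lie slightly above the length limit themselves.

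Ratios of abundant protein-coding genes declined with deposited length in these libraries. The median log2 ratio was 0.21 up to 1000 bases, 0.12 from there to 2000 bases (463 genes), 0.03 to 4000 bases (634 genes) and -0.07 beyond (315 genes). S100A14, at 0.57, was above the 95th percentile of 0.43 in the group from 1000 to 2000 bases that fits its length, and S100A16, at 0.25, was above the 75th percentile of 0.22 there. The part of transcript length in the S100 ratios was not tested. Of the genes nearest to a member in deposited length and level, the nucleoside diphosphate kinase gene NME2, nearest to S100A6, had 1570 CPM in siKAT7 and 1303 CPM in siControl, a log2 ratio of 0.27. RPL22L1, a ribosomal protein paralogue nearest to S100A11, had a log2 ratio of 0.12. NDUFB7, a respiratory complex I subunit nearest to S100A4, had 0.20, and ZNHIT1, a subunit of a chromatin remodelling complex nearest to S100A13, had 0.36. NDUFB7 and ZNHIT1 were above their S100 neighbour in ratio, and NME2 and RPL22L1 were below theirs. In each pair the counting intervals overlapped, as with 0.25 to 0.29 for NME2 and 0.26 to 0.30 for S100A6. NME2 shares exons with a readthrough model, so its reads may be divided.

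**Figure D3:**
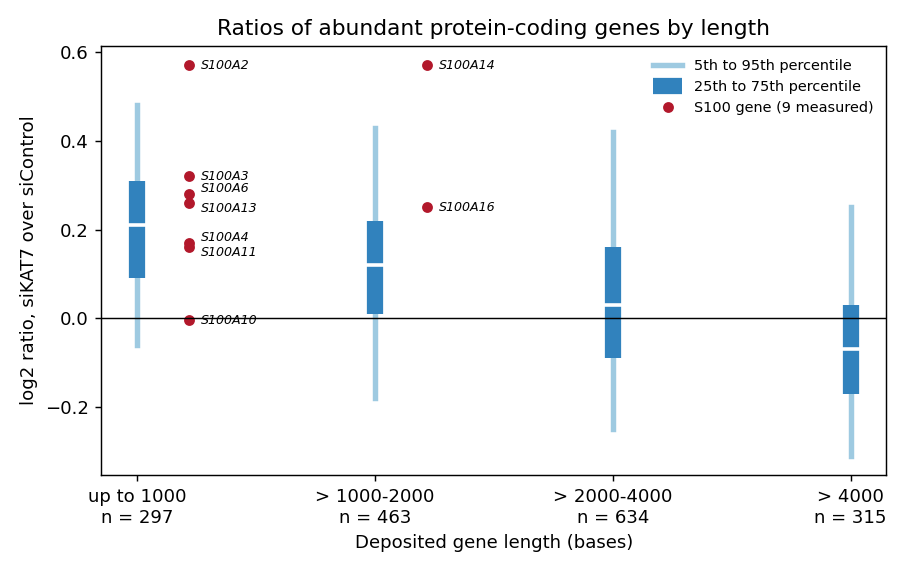
Log2 ratio, siKAT7 over siControl, of protein-coding genes with at least 100 CPM by deposited gene length, shown as the 5th to 95th percentile (thin bar), 25th to 75th percentile (thick bar) and median (white mark), with the 9 measured S100 genes as red points beside their own length group; S100A2 and S100A3 have fewer than 100 CPM. Medians run from 0.21 for the shortest group to -0.07 for the longest, and S100A14 and S100A2 lie above the thin bars of their groups.

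Genes for proteins that S100 proteins bind or act through had ratios on both sides of 0. Of 28 listed partners, 26 had at least 1 CPM, 12 had log2 ratios above 0 and 14 below, 0 were 1.5-fold higher or lower, and their median was -0.04. No difference between partners and members was tested. For S100A10, the annexin partner ANXA2 had 12406 counts in siKAT7 and 15977.72 in siControl, or 547 CPM and 657 CPM, a log2 ratio of -0.26 (-0.30 to -0.23), beside -0.0043 for S100A10. Reads of ANXA2 may be divided with its processed pseudogenes. AHNAK, a scaffold protein recruited by the same complex, had a log2 ratio of -0.14 (-0.20 to -0.07). For S100A4, the myosin gene MYH9 had 596 CPM in siKAT7 and 585 CPM in siControl, a log2 ratio of 0.03 (-0.01 to 0.06). For S100A6, CACYBP had -0.01 (-0.13 to 0.10) and SUGT1 had -0.12 (-0.34 to 0.11), and for S100A11, ANXA1 had 0.04 (-0.07 to 0.16). The ezrin gene EZR, with the most counts of the list, had 1821 CPM in siKAT7 and 2059 CPM in siControl, a log2 ratio of -0.18 (-0.20 to -0.16). For S100A13, FGF1 had 2 counts in siKAT7 and 0 in siControl, and SYT1, whose protein joins the release complex, had a log2 ratio of 0.24 (0.03 to 0.45). The partners other than EZR were named after their values were seen, for the member they bind.

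Other genes for EF-hand proteins were also spread around 0. Of 35 listed, 33 had at least 1 CPM, 16 were above 0 and 17 below, 0 passed the 1.5-fold limit, and the median was -0.01. ACTN4, which encodes an actin-crosslinking actinin and had the most counts of the list, had 1237 CPM in siKAT7 and 1273 CPM in siControl, a log2 ratio of -0.04 (-0.06 to -0.02). The lists were not matched to the S100 genes in transcript length.

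The remaining S100 genes were scarce in both libraries. Of 16 other symbols that begin with S100, pseudogenes included, 11 had 0 counts in both. S100A1, known from heart and skeletal muscle, had 21.26 expected counts in siKAT7 and 35.95 in siControl, a log2 ratio of -0.66 with a wide interval of -1.53 to 0.14. S100A5 had 33.7 expected counts in siKAT7 and 49.77 in siControl, a log2 ratio of -0.45 (-1.13 to 0.20). Both intervals included 0. S100A7 had 1 count in siKAT7 and 0 in siControl, and S100B had 0 counts in siKAT7 and 1 in siControl. S100PBP, which encodes an S100P-binding protein and no S100 protein, had 122.04 expected counts in siKAT7 and 175 in siControl, a log2 ratio of -0.42 (-0.76 to -0.08).

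Of the 10 members, 9 lie on chromosome 1 and S100P lies on chromosome 4, at 6693069 to 6697170 of GRCh38. The chromosome 1 members span 151982915 to 153631360, with S100A10 and S100A11 at the low end and the others in a compact group from S100A6 to S100A13. Between them lie 47 other protein-coding genes, of which 31 had 0 counts in both libraries and 1, the small proline-rich gene SPRR2D, had a mean of at least 1 CPM. SPRR2D had 92 expected counts in siKAT7 and 68.97 in siControl, a log2 ratio of 0.51 (0.05 to 0.99). Within the compact group neighbours differed in ratio. S100A14, at 153614255 to 153616986, had 0.57, while S100A16 at 153606886 to 153613145 and S100A13 at 153618787 to 153631360, on either side of it and on the same minus strand, had 0.25 and 0.26.

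**Figure D4:**
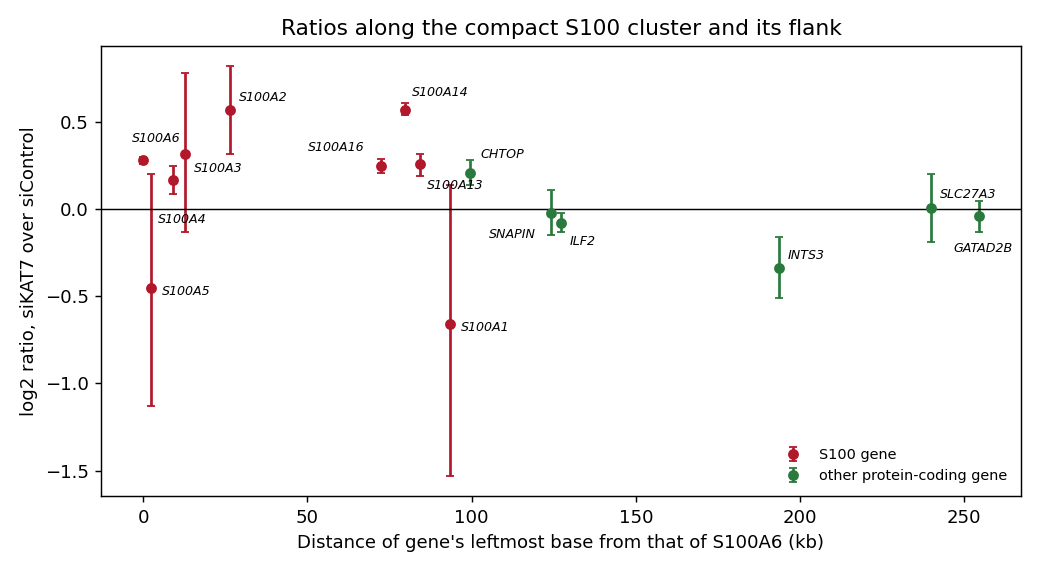
Log2 ratio, siKAT7 over siControl, with the 95% counting interval for genes averaging 1 CPM or more along the compact S100 cluster and its flank on chromosome 1, by distance from S100A6 (kb); S100 genes are red and other protein-coding genes green. S100A14 stands above its neighbours S100A16 and S100A13, and the wide bars of S100A5 and S100A1 cross 0.

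Overlapping gene models bear on a few of these values. S100A13 shares 18.8% of its 50-base windows with AL162258.1 on the same strand and 6.89% with S100A1 on the opposite strand, so their reads may be divided between entries. With the 3 entries summed, the log2 ratio was 0.26 (0.19 to 0.32), equal to that of S100A13 alone. S100A13 held 3896.61 of the 3959 summed counts in siKAT7 and 3496.81 of 3558 in siControl. The sum could therefore hardly differ from S100A13, and does not show whether reads were divided. S100A3 lies within the span of S100A4, and those 2 genes summed with S100A5 had a log2 ratio of 0.16 (0.08 to 0.24). S100A11 shared 1.9% of its windows with AC006483.1, which had 0 counts, and the other 8 members shared no such window with another gene.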

How the data were processed

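The deposited count table holds expected counts (estimated read counts) per gene, and the submitters' processing notes name RSEM 1.3.3 and GRCh38.p13. The sources used here do not give the aligner, the annotation or the strand setting. Without a strand setting, reads from the stretch where S100A13 and the antisense S100A1 overlap cannot be told apart. The table repeats both count columns with 0 differing cells, and the first of each was used. The 331 rows without a gene name, 1.67% of counts in siKAT7 and 1.11% in siControl, were left out. The authors' deposited comparison table gives a fold as a ratio, its log2 and p-values. Its log2 folds served as an alternative, and its p-values, which compare 2 libraries and not the conditions, were not used.

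Expected counts were rounded and scaled by TMM factors (0.964 for siKAT7, 1.04 for siControl; edgeR 4.0.16, R 4.3.3). Log2 ratios used a prior count of 0.5, and exact Clopper-Pearson 95% intervals came from the split of counts between the libraries. PCR reads carry no molecular identifiers here, so copies of a fragment cannot be told from separate fragments. Intervals and floors reflect counting error alone, and are too narrow where copies were counted. They also leave out the uncertainty of the read numbers that RSEM estimates. Genes averaging 1 CPM or more entered the comparison, and a gene was called at 1.5-fold with an interval that excluded 0. Gene types, positions and transcript sequences came from GENCODE 29. TPM was computed from deposited lengths in Python 3.11.15. The procedure was tested on simulated counts.

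Members, gene lists and named genes were chosen with earlier results of these data known. Named were all members, other S100 genes with counts, the gene with the most counts in a list without calls, and near genes in length and level, and exceptions are stated. With the length measure chosen at the start those near genes included SCAF1 and TMBIM1, which have deposited lengths of 4222 and 2936 bases. Not every gene that the rule takes is given. The near genes in the text were therefore chosen by deposited length, after the data were seen.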

Additional observations from a re-analysis of the deposited data

How the results depend on the processing

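Total-count scaling lowered log2 ratios over all genes by a median of -0.11, and DESeq2 1.42.0 size factors moved them by -0.01. The S100 median was 0.15 with total-count scaling and 0.15 with the authors' deposited folds. Under each of the 5 alternatives of scaling, prior count, rounding and fold source, 8 of the 9 measured members stayed above 0. These alternatives were not independent, as the authors' folds matched total-count scaling for each measured member. TPM was not among them. On that scale S100A10, S100A11 and S100A4 were lower in siKAT7, with overlapping counting intervals for S100A11 and S100A4. The other measured members were higher. The difference from the median of short abundant genes was -0.01, a change of sign, when length was that of the longest transcript, and 0.05 with the deposited length, an alternative chosen after seeing the data. The longest-transcript rule kept 93 genes in place of 676. With the looser fold limit of 5 to 4, calls were 2 for S100 members, 1 for partner genes (ANXA7, lower) and 1 for other EF-hand genes (RCN2, lower), where the 1.5-fold limit gave 0 in each. At that looser limit 10.1% of all genes were higher and 10.9% lower, and 20.9% of short abundant genes by deposited length were higher. Of 99 values recomputed, 74 moved by less than their counting error or, for counts, by no more than 1.5 times. No paired analysis was possible because each group has 1 library, and for the same reason no replicate could be left out. Depth limits S100A3, S100A1, S100A5 and S100P most.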

Other observations

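Protein-coding genes just beyond the S100 cluster on chromosome 1, named after their values were seen, had a mixture of ratios. CHTOP, which encodes a chromatin target of an arginine methyltransferase and lies next to S100A1, had 158 CPM in siKAT7 and 136 CPM in siControl, a log2 ratio of 0.21 (0.14 to 0.28). SNAPIN, a SNARE-associated gene, had -0.02 (-0.15 to 0.11), and ILF2, an RNA-binding protein gene, had -0.08 (-0.13 to -0.02). INTS3, a subunit gene of the Integrator complex, had 20.4 CPM in siKAT7 and 25.8 CPM in siControl, a log2 ratio of -0.34 (-0.51 to -0.16). The noncoding gene BX470102.2, which lies between S100A2 and S100A16, had 64 expected counts in siKAT7 and 39 in siControl, a log2 ratio of 0.81 (0.22 to 1.43).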
